A study of Mus musculus with 4 samples.

Results

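The ligands, receptors and effectors of bone morphogenetic protein (BMP) and transforming growth factor-beta (TGF-beta) signalling were followed in mouse cardiac mesenchymal progenitors (CMPs) transduced with reprogramming factors. Members were chosen by gene name alone, with no measured value used: the Bmp, Gdf, Tgfb and Inhb ligand genes, the Tgfbr, Bmpr and Acvr receptor genes, the Smads, Id1 to Id4, and the secreted antagonists Nog, Chrd, Fst and Grem1. These came to 56 genes on 80 probes, of 34844 gene names on 55681 probes on the array. Of these, 52 genes on 70 probes were well above background on at least 1 array and are described as measured. Bmp5, Bmp15, Gdf2 and Inhbc were not well above background on any of the 4, and their levels are left out.

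The cells were Sca-1+ CMPs from the atria of adult C57BL/6 mice. The control array held untreated CMPs. Their labels give no day, and they are drawn at day 0 in the figures. The other 3 arrays held CMPs given Sendai virus carrying OSKM (Oct4, Sox2, Klf4 and c-Myc) and taken at days 4, 6 and 8. The paper counts days from the change of medium, on the day after infection. The transduced cells were moved to a reprogramming medium without leukemia inhibitory factor, so factors, virus, medium and time in culture cannot be told apart in any comparison with the control. Each condition was 1 array of 1 RNA sample, without replicates, so no test between conditions was possible and no p-value is given.

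Levels are log2 of the background-corrected spot intensity minus the 75th percentile of the same array, so 0 is the 75th percentile and a negative level lies below it. They compare 1 gene between arrays and never 1 gene with another, since probes differ in brightness. The ± after a log2 change is 1 SD from the scanner software's error model. It had a median of 0.20 over the members and covers neither cultures nor RNA preparation. A gene is called higher or lower where its levels as scaled differed at least 2-fold and its signal was well above background, by the scanner software's flag, on at least 1 of both arrays. Where 1 side was not well above background, the ratio is a bound, written as "at least". The arrays were alike in brightness: the 75th percentile lay between 388.5 and 410.9 intensity units, 56.6% to 59.6% of probes were well above background, and no spot was saturated. All 6 mesenchymal markers were well above background on every array, but their levels went both ways. Thy1, Eng and Col1a1 had log2 changes of -1.78, -1.19 and -0.23 at day 8. Pdgfra, Nt5e and Ly6a had 0.71, 2.10 and 2.69. The adipocyte markers went from 1 of 5 on the control array to 5 of 5 at day 8. The log2 of their summed levels, added on the linear scale, went from 1.31 to 8.25. The brightest probes weigh most in such a sum. In RNA from whole cultures, fewer cells of a type and less RNA per cell cannot be told apart.

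BMPs, GDFs, activins and TGF-betas are secreted dimers that bring together type I and type II serine/threonine kinase receptors. The activated type I receptor phosphorylates receptor-regulated Smads, Smad2 and Smad3 for TGF-beta and activin and Smad1, Smad5 and Smad9 for BMP, which enter the nucleus with Smad4. Smad6, Smad7 and the Id genes are direct targets of the pathway, and Smad6 and Smad7 feed back to inhibit it. In mesenchymal cells TGF-beta is known for driving the contractile, matrix-producing myofibroblast state and for restraining fat cell differentiation, while several BMPs promote it.

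At day 8, 14 of the 52 measured members (26.9%) were at least 2-fold lower than the control, beside 11.5% of the 16606 measured genes with a name in the RefSeq table. On the other side, 11 members (21.2%) were at least 2-fold higher, beside 14.1% of those genes. Day 6 gave 13 members lower (25.0%, beside 11.3%) and 11 higher (21.2%, beside 12.3%). Day 4 gave 14 lower (26.9%, beside 9.47%) and 6 higher (11.5%, beside 11.4%), so the share of higher members at day 4 was at the background. The median log2 change of the members was -0.19 at day 4, -0.12 at day 6 and -0.22 at day 8, beside -0.01, -0.04 and -0.03 over the named genes. Some of the higher members were measured only because they rose above background on a transduced array: of the 47 members well above background on all 4 arrays, 6 were higher and 14 lower at day 8, beside 10.2% and 10.3% of the named genes under that filter. Where dim levels were raised to the lowest level well above background on the array, the higher members numbered 10 at day 8 and 9 at day 6, beside 12.2% and 11.0%, since Bmp7 at both days and Bmp8b at day 6 have bounds under 2-fold.

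**Figure D1:**
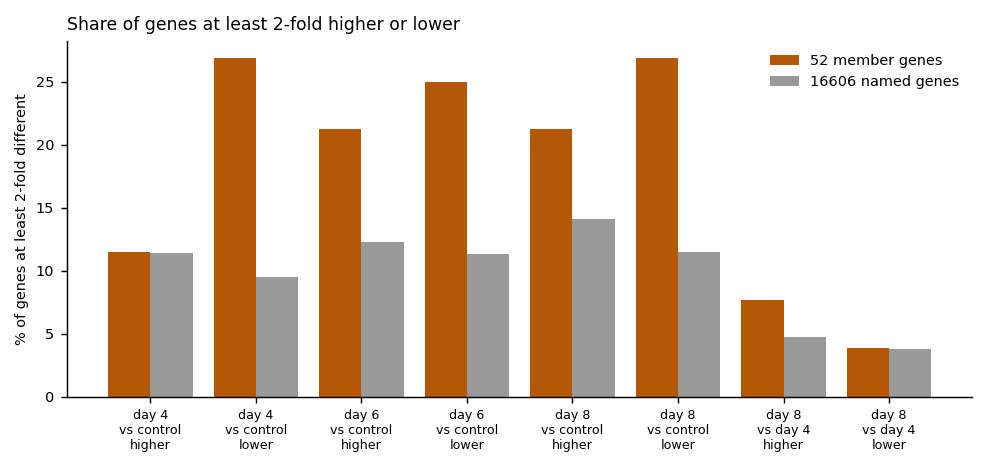
Percent of genes (vertical axis) at least 2-fold higher or lower in each comparison, for the 52 measured member genes (brown bars) and the 16606 named genes (grey bars), with 1 array per condition. The members' bars for lower genes stood at 25.0% to 26.9% on the 3 days, above 9.47% to 11.5% of named genes, while the bars for higher genes were level at day 4 (11.5% and 11.4%).

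Among the lower members, mostly the same genes were counted on each day. In all, 13 genes were lower on all 3 days (Tgfb1, Tgfb2, Inhba, Inhbb, Bmp4, Bmp6, Gdf6, Acvrl1, Smad6, Smad7, Id3, Id4 and Fst), and 6 were higher on all 3 days (Bmp2, Bmp8b, Gdf5, Gdf10, Tgfbr3 and Grem1), of which Bmp8b had a bound of only 1.98-fold at day 6. A further 26 members stayed under 2-fold of the control on every day. The same patterns were not counted over the named genes, so these counts have no background beside them.

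**Figure D2:**
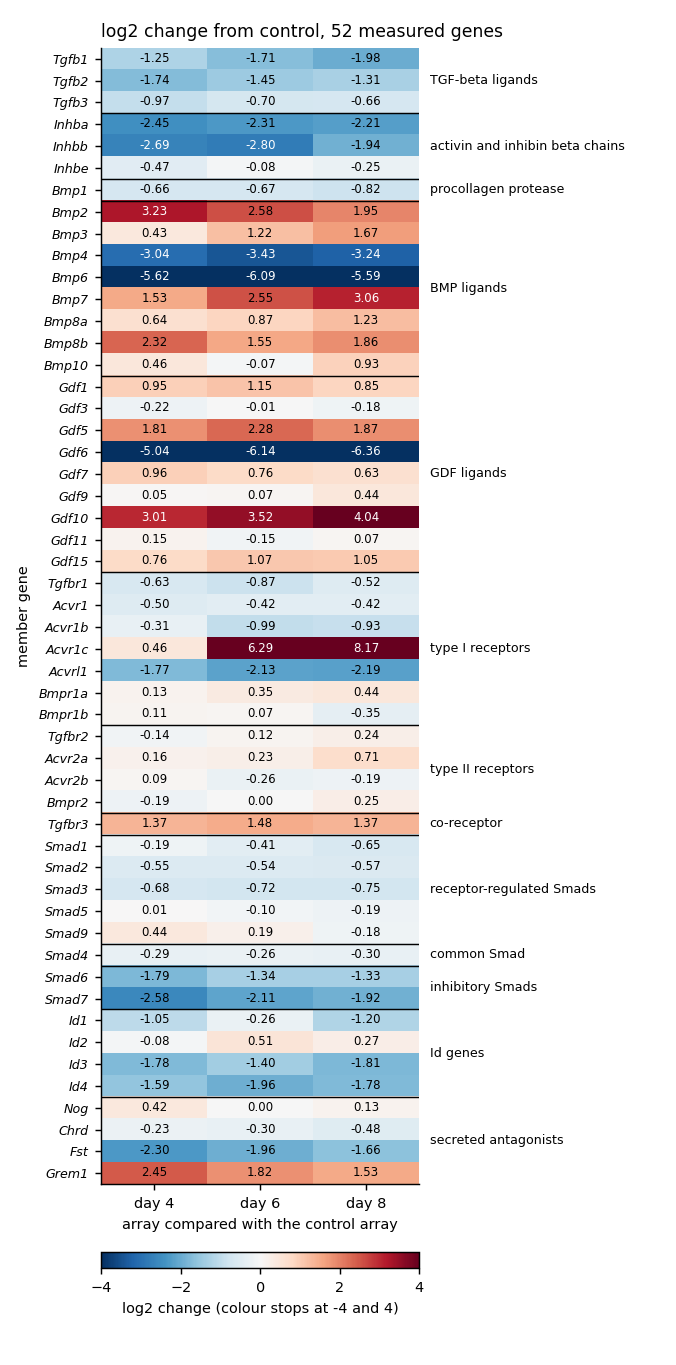
The log2 change of each of the 52 measured member genes (rows, grouped by role) from the control array to the day 4, day 6 and day 8 arrays (columns). Red is higher and blue lower, with the value printed in each cell. The strongest blue is in the ligand rows Bmp6 and Gdf6 (-5.59 and -6.36 at day 8) and the strongest red in the type I receptor row Acvr1c, while the type II receptor and receptor-regulated Smad rows are pale. For Bmp3, Bmp7, Bmp8b, Gdf10 and Acvr1c the control was not well above background, so their printed values are not measured changes and only the bounds in the text hold.

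Of the TGF-beta and activin chains, Tgfb1, Tgfb2, Inhba and Inhbb were lower in transduced CMPs, and Tgfb3 and Inhbe did not reach 2-fold. Tgfb1, the form of TGF-beta most studied in fibrosis, had a log2 level of 1.18 in the control and -0.07, -0.53 and -0.80 at days 4, 6 and 8. The control was the highest and each later array was lower than the one before, a log2 change of -1.98 ± 0.06 at day 8, or 3.96-fold lower. Tgfb2 was at 3.37 on the control array and at 1.63, 1.91 and 2.05 at days 4, 6 and 8. Its 2 probes gave log2 changes of -1.49 and -1.13 at day 8. Tgfb3 stood at 5.0, 4.03, 4.29 and 4.34 in the same order, 1.95-fold lower at day 4 and 1.58-fold lower at day 8, short of the 2-fold limit.

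Inhba, which encodes the subunit of activin A, was at 5.48 in the control and 3.03, 3.18 and 3.28 at days 4, 6 and 8. Inhbb, the subunit of activin B, was at 3.40, 0.72, 0.60 and 1.46. All 3 transduced arrays lay far below the control for both genes, by 5.47-fold for Inhba and 6.43-fold for Inhbb at day 4 and by 4.61-fold and 3.83-fold at day 8. Inhbe, of which the liver is the known source, differed by at most 1.38-fold. Bmp1, a procollagen protease and not a ligand despite its name, was 1.77-fold lower at day 8.

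The BMP ligands split. Bmp4 and Bmp6, both known as bone-inducing ligands, were already far lower at day 4. Bmp4 had a level of 4.89 in the control and 1.85, 1.46 and 1.64 at days 4, 6 and 8, which was 9.46-fold lower at day 8 (log2 change -3.24 ± 0.20). This rests on 1 probe (chr14:47003391-47003450, mm9), since another Bmp4 probe for the same transcript stayed below the background limit on all 4 arrays. Bmp6 fell further, from 2.42 on the control array to -3.19, -3.66 and -3.17, 48.2-fold lower at day 8 with an error of 0.22 on a log2 change of -5.59. All 3 transduced arrays were well above background for Bmp6, so the ratio was measured and is not a bound.

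Both promoters hold the hexamer CACGTG, an E-box, in the 250 bases before the gene start. They are shown as the promoters of the BMP ligands that fell. The hexamer, which reads the same on both strands, stood in 6.02% of 32851 mouse promoter entries of that length and in 5 of the 47 entries of members (10.6%), those of Acvr1b, Bmp4, Bmp6, Gdf15 and Tgfb2. Of these 5 genes, Bmp4, Bmp6 and Tgfb2 were called lower, Gdf15 was called higher and Acvr1b was not called. The entries of Tgfb1, Inhba and Inhbb, also called lower, do not hold the hexamer. Any part of these letters in the results was not tested. The sequences are from RefSeq, build GRCm38.p6, on the strand of the gene, with the hexamer in capitals.
Bmp4 (chr14:46390670-46390919, minus strand): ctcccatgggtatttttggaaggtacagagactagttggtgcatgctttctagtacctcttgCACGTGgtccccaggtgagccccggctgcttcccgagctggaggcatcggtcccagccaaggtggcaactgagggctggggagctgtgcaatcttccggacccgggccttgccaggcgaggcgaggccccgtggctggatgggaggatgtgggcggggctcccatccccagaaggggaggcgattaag
Bmp6 (chr13:38345466-38345715, plus strand): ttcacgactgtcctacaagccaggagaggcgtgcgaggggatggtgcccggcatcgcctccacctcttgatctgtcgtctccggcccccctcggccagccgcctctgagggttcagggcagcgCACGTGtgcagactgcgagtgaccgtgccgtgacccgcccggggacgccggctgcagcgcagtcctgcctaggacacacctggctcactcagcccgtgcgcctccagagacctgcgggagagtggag

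Bmp2 moved the opposite way to its close relative Bmp4. Its level was -2.31 in the control and 0.92, 0.27 and -0.36 at days 4, 6 and 8. It was highest at day 4, 9.38-fold over the control, then dropped on each later array, and was still 3.88-fold over the control at day 8. From day 4 to day 8 it decreased by 1.27 ± 0.20 on the log2 scale. Bmp8a rose more slowly, from -2.60 to -1.97, -1.73 and -1.37, and passed 2-fold at day 8 (2.35-fold). Its log2 change of 1.23 at day 8 was 0.96 with the array median as the scale and 0.69 under the normexp correction described next, both short of 2-fold.

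Bmp3, Bmp7 and Bmp8b were dim. Bmp3, which is known as an inhibitory member of the family, was at -5.31 on the control array, not well above background, and at -4.88, -4.10 and -3.65 afterwards, at least 3.18-fold higher at day 8. Bmp7, a ligand tied to brown fat, was not well above background in the control (-7.54) or at day 4 (-6.01), and reached -4.98 at day 6 and -4.47 at day 8. The difference at day 8 was at least 1.82-fold. Bmp8b was at -5.90 on the control array, below background, and at -3.57, -4.35 and -4.04, at least 2.46-fold higher at day 8. With a different background correction (normexp with an offset of 50, then quantile scaling), the day 8 log2 changes of these 3 genes were 0.42, 0.33 and 0.26, and none reached 2-fold. Bmp10, a ligand of the heart, was at -4.78, -4.33, -4.85 and -3.85 and stayed under 2-fold of the control.

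Gdf6 had the largest fall among the members at day 8, while at day 4 Bmp6 was further below the control. Its level was 3.48 in the control and -1.57, -2.67 and -2.88 at days 4, 6 and 8, which was 33.0-fold, 70.7-fold and 82.0-fold lower (log2 change -6.36 ± 0.22 at day 8). Gdf5, a relative of Gdf6 in joint and cartilage development, moved the other way, at -3.69, -1.88, -1.41 and -1.82. Its 2 probes were higher on all 3 transduced arrays but by unequal amounts, with log2 changes of 3.1 and 0.64 at day 8. For Gdf7, the last of that trio, the probes gave 1.22 and 0.05 and the gene stayed under 2-fold.

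Gdf10, also known as Bmp3b, was not well above background in the control (-6.60) and stood at -3.59, -3.08 and -2.56 on the transduced arrays. It was at least 3.35-fold, 4.79-fold and 6.89-fold higher, in order of day. Under the normexp correction its day 8 log2 change was 0.84. Gdf15, a stress-induced cytokine far from the rest of the family in its receptor, was well above background throughout at 3.25, 4.00, 4.31 and 4.30, and 2.07-fold higher at day 8. With the array median as the scale its log2 change at day 8 was 0.79, short of 2-fold. Gdf1 was higher by 2.22-fold at day 6, with levels of -1.75, -0.80, -0.60 and -0.90, and its log2 change at day 6 was 0.83 under the normexp correction. Gdf3, Gdf9, an oocyte factor, and Gdf11, a regulator of tissue patterning, differed by at most 1.36-fold on any day.

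**Figure D3:**
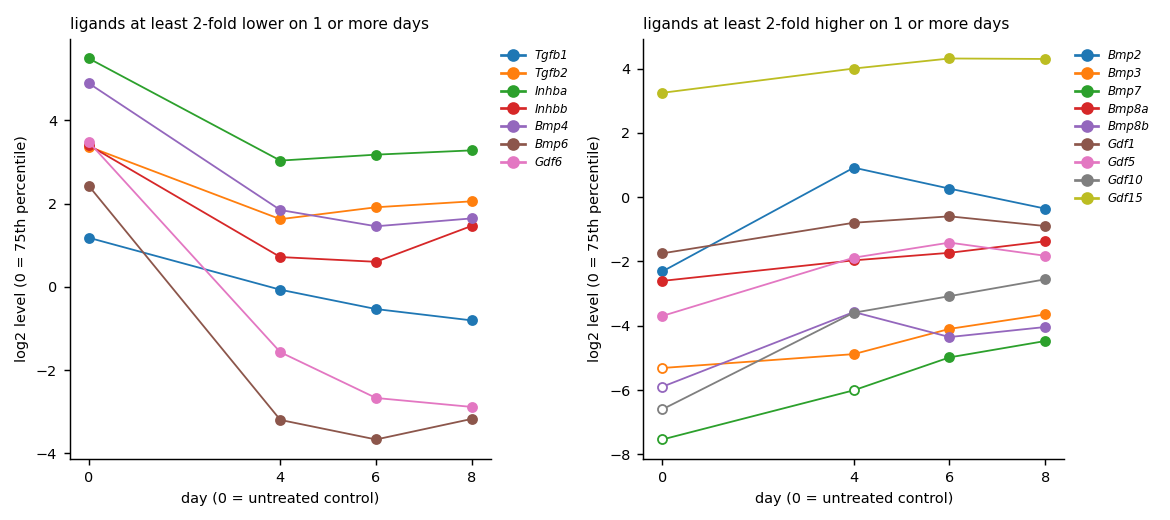
Log2 level (vertical axis, 0 is the 75th percentile of the array) against day, 1 array per point, for the 7 ligand genes called lower (left) and the 9 called higher (right) on at least 1 day. Open circles mark arrays where the gene was not well above background. The untreated control, whose label gives no day, is drawn at day 0. Most of each fall was in place at day 4 (Bmp6 from 2.42 to -3.19), and Bmp2 peaked at day 4, whereas Bmp3, Bmp7 and Gdf10 climbed on each array. The height of a line compares arrays and not genes.

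Among the 12 receptors, Acvr1c and Tgfbr3 were higher and Acvrl1 was lower at day 8, beside 14.1% of named genes higher and 11.5% lower, so the count of 9 receptors under 2-fold is near the background. Acvr1c encodes ALK7, a type I receptor for activin B, Nodal and some GDFs that is known for its expression in fat cells. It was not well above background in the control (-7.20) or at day 4 (-6.74), then stood at -0.91 at day 6 and 0.97 at day 8. The difference from the control was at least 21.6-fold at day 6 and at least 79.5-fold at day 8, and that from day 4 to day 8 at least 71.1-fold. Its 2 probes (chr2:58119888-58119947 and chr2:58124244-58124303, mm9) were both dim in the control, at -7.16 and -7.23, and stood at 0.65 and 1.30 at day 8. Under the normexp correction the day 8 log2 change was 3.76, with the control still below background. It came above background between days 4 and 6. The log2 of the summed levels of the 5 adipocyte markers was 1.31, 4.28, 6.95 and 8.25 in order of day, but their timing differed. Adipoq, the gene of adiponectin, was at -5.73, -1.51, 4.57 and 5.86. Fabp4, a fatty acid-binding protein, was at 1.28, 4.24, 6.04 and 7.06. Lep, the gene of leptin, was well above background only at day 8. The part of these markers in the result was not tested.

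Acvrl1 encodes ALK1, the type I receptor that endothelial cells use for BMP9 and BMP10. It went from 5.02 on the control array to 3.24, 2.88 and 2.83, which was 4.55-fold lower at day 8. The endothelial marker list was mixed. It had 5 of 5 genes well above background in the control and 3 of 5 on each transduced array. The log2 of its summed levels went from 0.84 in the control to 0.08 at day 8. Cdh5 and Tie1 were not well above background on any transduced array, and Tie1 was already dim in the control (-4.27). Tek went from -1.79 on the control array to -4.48 at day 8. Pecam1 stood at -2.74 on the control array and -2.64 at day 8, and Kdr at 0.01 and -0.26. Their part in the result was not tested. Eng, the co-receptor that works with ALK1, was 2.28-fold lower at day 8, and it is also on the list of mesenchymal markers.

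The co-receptor gene Tgfbr3, which encodes betaglycan, was at 1.71 on the control array and at 3.08, 3.19 and 3.08. The 3 transduced arrays lay close together, 2.59-fold to 2.79-fold over the control. The receptors at the centre of both branches were steadier. Tgfbr1, the type I receptor of TGF-beta, was at -0.37, -1.0, -1.24 and -0.89, and Tgfbr2, its type II partner, at 2.93, 2.79, 3.05 and 3.17. Bmpr1a stood at 2.90, 3.03, 3.25 and 3.34, and Bmpr2 at 1.78, 1.59, 1.78 and 2.03. All 4 type II receptors differed by less than 2-fold on every day, with log2 changes from -0.26 to 0.71. A lack of calls among so few genes is not read as a difference from the shares of named genes given above for the receptors. Among the type I receptors under 2-fold, Acvr1b, an activin receptor, came nearest to the limit at 1.98-fold lower at day 6.

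The Smads that carry the signal stayed under 2-fold, and the inhibitory Smads fell. Smad4, the common partner, was at 3.67, 3.38, 3.41 and 3.37, 1.23-fold lower at day 8. The 5 receptor-regulated Smads had log2 changes between -0.75 (Smad3) and -0.18 (Smad9) at day 8, and none was called on any day. With 14.1% of named genes higher and 11.5% lower at day 8, a lack of calls among so few genes is not read as a result about these Smads. The 2 probes of Smad5 disagreed in direction at day 8, at 0.41 and -0.78. Smad6, which blocks BMP signalling, went from 3.17 on the control array to 1.38, 1.83 and 1.84. Smad7, which blocks both branches, went from 2.26 to -0.32, 0.14 and 0.34. Both were lowest at day 4, at 3.46-fold and 5.99-fold lower, and were 2.51-fold and 3.78-fold lower at day 8.

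The Id genes, targets of BMP signalling that inhibit basic helix-loop-helix factors, were lower with the exception of Id2. Id3 was at 6.84 in the control and 5.06, 5.43 and 5.03 at days 4, 6 and 8, or 3.50-fold lower at day 8. Id4 was at -1.28, -2.87, -3.23 and -3.05, or 3.43-fold lower. For both, each transduced array lay at least 1.40 log2 units below the control. Id1 was at 5.34, 4.29, 5.08 and 4.14, past 2-fold at days 4 and 8 and only 1.20-fold lower at day 6. Under the normexp correction its log2 changes were -0.85 at day 4 and -0.95 at day 8, short of 2-fold. Id2 was at 2.82, 2.74, 3.33 and 3.09 and stayed under 2-fold. Across the 6 Smad6, Smad7 and Id genes the median log2 change was -1.55 at day 8, against -0.43 over the 6 signal-carrying Smads and -0.03 over all named genes.

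Promoter stretches of 3 Id genes and Smad6 are shown because these are the members known as direct BMP targets, and an entry was at hand. The hexamer GGCGCC, a GC-rich element that BMP Smads are known to bind, was searched in the 250 bases before the gene start, and it too reads the same on both strands. It was found in 9.59% of the 32851 promoter entries and in 10 of the 47 entries of members (21.3%), each of another gene (Bmpr1a, Bmpr2, Chrd, Gdf1, Grem1, Id2, Id4, Smad5, Smad9 and Tgfbr1). Id4, which fell, and Id2, which stayed under 2-fold, both have 1 match, while Id3 and Smad6, which fell, have none in this window. The Smad box CAGACA, searched on both strands, stood in 17.1% of all entries and in 6 of the 47 entries of members (12.8%). Capitals mark GGCGCC in the stretches, which are from RefSeq, build GRCm38.p6, on the strand of the gene.
Id2 (chr12:25096093-25096342, minus strand): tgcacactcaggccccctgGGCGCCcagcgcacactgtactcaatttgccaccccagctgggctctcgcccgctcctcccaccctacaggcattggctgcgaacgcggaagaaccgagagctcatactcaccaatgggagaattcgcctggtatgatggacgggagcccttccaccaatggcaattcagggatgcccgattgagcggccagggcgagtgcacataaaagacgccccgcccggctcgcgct
Id4 (chr13:48260866-48261115, plus strand): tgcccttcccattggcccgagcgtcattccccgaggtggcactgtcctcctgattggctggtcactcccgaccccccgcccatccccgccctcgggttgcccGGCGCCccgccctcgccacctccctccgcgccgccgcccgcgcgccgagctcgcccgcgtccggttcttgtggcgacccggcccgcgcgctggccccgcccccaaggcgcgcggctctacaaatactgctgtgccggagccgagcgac
Id3 (chr4:136143572-136143821, plus strand): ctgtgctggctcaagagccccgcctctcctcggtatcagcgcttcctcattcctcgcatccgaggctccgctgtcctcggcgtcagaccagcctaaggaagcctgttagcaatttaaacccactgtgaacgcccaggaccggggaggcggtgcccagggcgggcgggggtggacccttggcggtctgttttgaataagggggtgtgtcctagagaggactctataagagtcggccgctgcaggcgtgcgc
Smad6 (chr9:64022060-64022309, minus strand): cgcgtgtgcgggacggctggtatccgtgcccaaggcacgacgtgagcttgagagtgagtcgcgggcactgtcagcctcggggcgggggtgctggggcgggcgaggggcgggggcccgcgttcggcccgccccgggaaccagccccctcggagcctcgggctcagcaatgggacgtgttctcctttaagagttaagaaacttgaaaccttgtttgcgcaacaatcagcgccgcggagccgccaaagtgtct

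**Figure D4:**
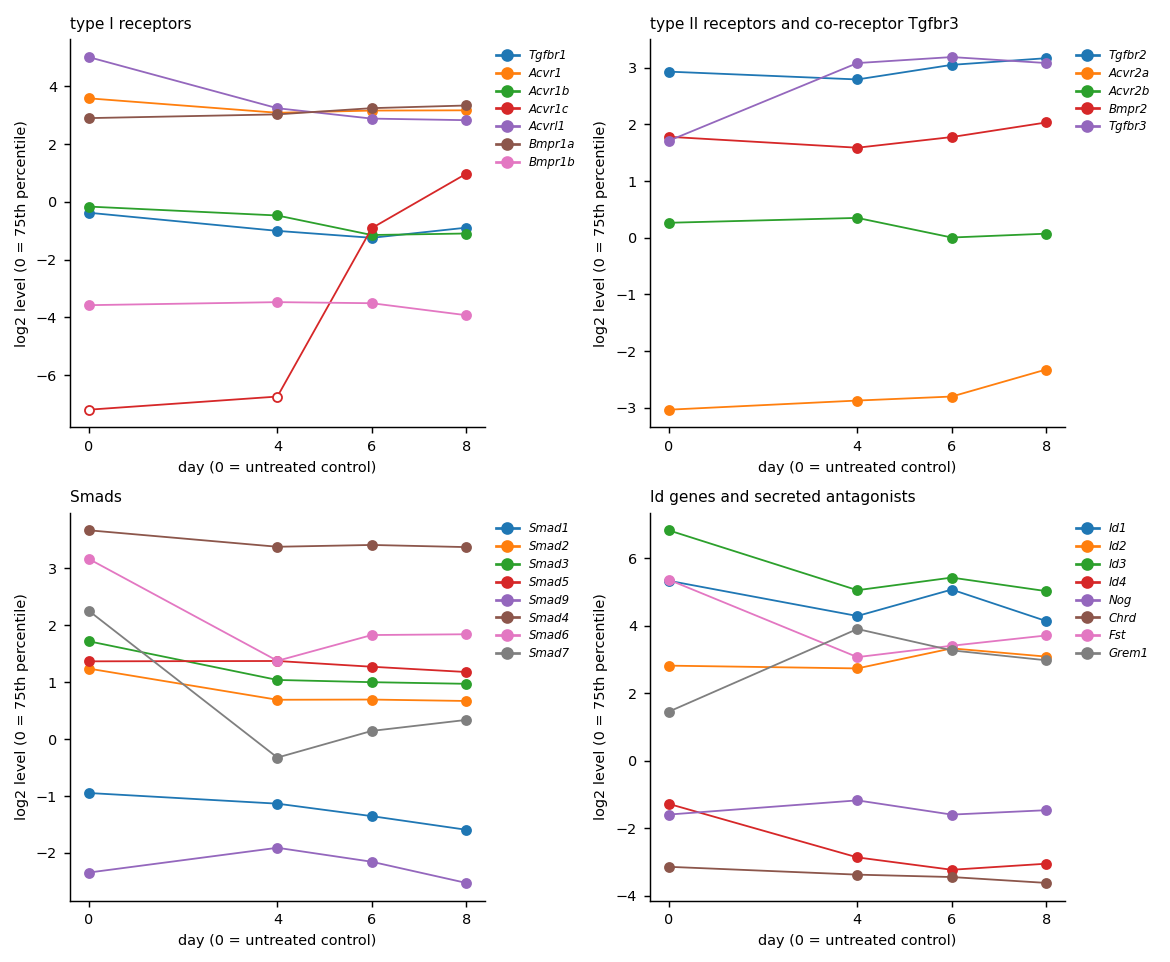
Log2 level (vertical axis, 0 is the 75th percentile of the array) against day for the type I receptors, the type II receptors with the co-receptor Tgfbr3, the Smads, and the Id genes with the secreted antagonists, 1 array per point. Open circles mark arrays where the gene was not well above background. The untreated control, whose label gives no day, is drawn at day 0. Acvr1c climbs from a dim -6.74 at day 4 to 0.97 at day 8, Acvrl1 falls, and the other type I receptors stay under 2-fold of the control. Smad6 and Smad7 drop by day 4, and Grem1 rises as Fst falls. The height of a line compares arrays and not genes.

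Of the secreted antagonists, Grem1 rose while Fst fell. Grem1 encodes gremlin, which binds BMP2 and BMP4 and keeps them from their receptors. It was at 1.45 in the control and 3.91, 3.27 and 2.98 at days 4, 6 and 8. Like Bmp2 it was highest at day 4, 5.48-fold over the control, and lower on each later array, with 2.88-fold left at day 8. Fst encodes follistatin, which traps activins, and went from 5.37 to 3.07, 3.41 and 3.72, or 3.15-fold lower at day 8. Nog and Chrd, the BMP traps of early embryos, stayed under 2-fold, with log2 changes of 0.13 ± 0.21 and -0.48 ± 0.19 at day 8.

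Of the 26 members called on any day, 6 higher and 14 lower ones were already past 2-fold at day 4, and few members moved between days 4 and 8. Over that interval 4 members (7.69%, beside 4.71% of named genes) were called higher: Bmp3, Bmp7, Gdf10 and Acvr1c. Bmp7 was not well above background at day 4, and its ratio of at least 1.63-fold is under the limit, which leaves 3 members where dim levels were raised to the floor, beside 3.55%. Another 2 (3.85%, beside 3.79%) were lower: Bmp2 and Gdf6. Both shares rest on so few genes that 1 gene moves them by almost 2 percentage points, and all 4 higher genes were below background on the control array. The calls that appeared only after day 4 were those of Acvr1c, Bmp3, Bmp7, Bmp8a, Gdf1 and Gdf15, all of them higher. Such calls were not counted over the named genes, so neither their number nor their direction has a background beside it. Acvr1c, Bmp3 and Bmp7 were below background in the control. Bmp8a, Gdf1 and Gdf15 were already 1.56-fold, 1.93-fold and 1.69-fold higher at day 4, under the limit.

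The wider pathway was followed in 102 further genes, of which 90 were measured. At day 8, 32 of them were at least 2-fold lower and 13 higher, with a median log2 change of -0.41, beside 11.5% lower, 14.1% higher and a median of -0.03 over the named genes. The share of higher genes was thus near the background. Known TGF-beta target genes made up the largest group of lower genes, 13 of 22, with 3 higher and a median of -1.33. Cnn1, Acta2 and Tagln, which encode contractile proteins of smooth muscle and myofibroblasts, had log2 changes of -5.24 ± 0.22, -5.09 ± 0.06 and -4.78 ± 0.20, and Ctgf, a matricellular growth factor, -3.89 ± 0.20. These first 3 genes also make up the measured smooth muscle markers, so the list of targets and that of the markers are not separate. The log2 of the summed levels of those markers went from 9.18 in the control to 4.26 at day 8. The 3 higher targets were Tgfbi, a matrix protein, at 2.04 ± 0.20, Ltbp2 at 1.80 ± 0.20 and Postn at 1.10 ± 0.20. The collagen genes of the list, Col1a1, Col1a2 and Col3a1, and the fibronectin gene Fn1 had log2 changes between -0.23 and -0.11 at day 8, but Col3a1 was past the 2-fold limit at day 4 (-1.0). These 4 are named after their values were seen.

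Of 15 known BMP target genes, 5 were lower and 2 higher, with a median log2 change of -0.40, beside 11.5% lower and 14.1% higher among named genes. The cardiac factor Tbx20 fell from a level of 2.95 on the control array to -2.17, -2.58 and -2.72, or 50.9-fold lower at day 8. Hey1 and Hey2, which are also Notch targets of endothelial and cardiac cells, had log2 changes of -4.20 ± 0.21 and -3.53 ± 0.34, and Hey2 was not well above background at days 4 and 6. Alpl, the bone alkaline phosphatase, was 4.81-fold lower. Msx1 and Tbx3 were higher, by 4.50-fold and 2.48-fold.

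**Figure D5:**
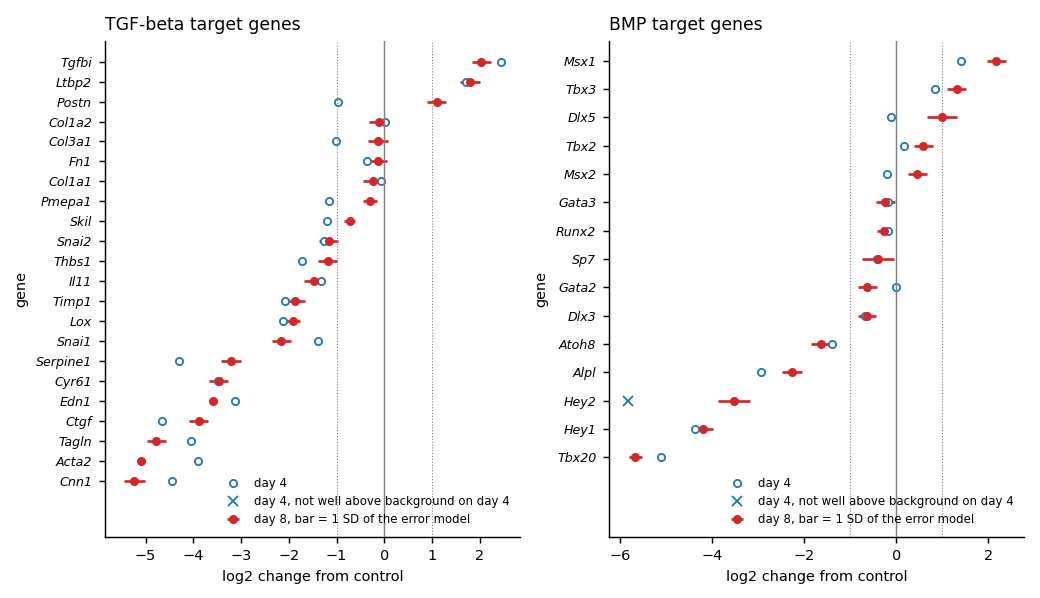
Log2 change from the control array (horizontal axis) of the 22 TGF-beta and 15 BMP target genes measured, ordered by the day 8 value. Filled circles are day 8 with 1 SD of the error model, open circles day 4, a cross a gene not well above background at day 4, and dotted lines 2-fold. Most TGF-beta targets lie left of the dotted line on both days, down to -5.24 for Cnn1, whereas Tgfbi and Ltbp2 lie to the right.

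Genes that hold, release or trap the ligands went both ways. Among 17 genes of latency and activation, 4 were higher at day 8 and 5 lower, beside 14.1% and 11.5% of named genes. The higher ones were Htra3, Htra1, Ltbp2 and Ltbp1, with log2 changes of 2.28, 2.21, 1.80 and 1.17. The lower ones were led by Itgb8, Lrrc32, Ltbp4 and Pcsk5 at -2.44, -1.95, -1.80 and -1.74. Itgb8 was not well above background at days 4 and 6, and was dim at day 8 (-5.10). The 3 probes of Ltbp4 ranged from -2.65 to -1.27. Ltbp2 and Thbs1, the last of the 5 lower genes, are also in the list of TGF-beta targets. Itgb8 and Lrrc32 encode proteins that bind and activate latent TGF-beta at the cell surface. Among 11 further secreted modulators, 3 were higher at day 8 and 5 lower, beside the same 14.1% and 11.5% of named genes. Dcn, the proteoglycan decorin that binds TGF-beta, was 8.32-fold higher and Kcp 2.32-fold higher. Chrdl1, a BMP trap, was at least 3.14-fold higher and is named outside the naming rule, after its values were seen, since it was not well above background in the control. The 5 lower ones were led by Bmper, Crim1, Bgn and Nbl1, with log2 changes of -2.26, -1.94, -1.80 and -1.62.

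Of 6 further membrane proteins, Eng and Neo1 were lower and Amhr2 3.09-fold higher. Of 19 Smad regulators and cofactors, 3 were lower and 1 higher, again beside 11.5% and 14.1% of named genes. The ubiquitin ligases Nedd4l, Smurf2 and Smurf1, which mark Smads or receptors for turnover, were lower, with log2 changes of -2.34, -1.27 and -1.19. The 2 probes of Nedd4l gave -3.13 and -1.55. Tob1, a repressor of BMP Smads, was 3.80-fold higher. None of the 4 other measured ligands of the family, Nodal, Lefty1, Lefty2 and Inha, reached 2-fold on any day.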

How the data were processed

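Total RNA of 4 samples was labelled with 1 dye and hybridised to 1 Agilent mouse array each. The deposited intensity files are scanner output: the authors' processed signal is background-corrected by Agilent Feature Extraction (10.7.3.1 per the file headers, 9.5.3 in the submitters' processing notes). The deposited value table is on a log2 scale. After a constant per array, 100% of its probes lay within 0.05 of log2 processed signal, its 75th percentiles were near 0 and its medians were -4.22, -4.08, -4.09 and -3.96, so it was used only as an alternative. All 4 arrays were of 1 design and were read in 1 scan run.

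Control and outlier spots were left out, spots of a probe averaged, and each array's 75th percentile subtracted from log2 processed signal. Probes well above background on at least 1 of the 4 arrays were kept (35544 of 55681), and the kept probes of a gene averaged. For a bound, the dim side was set to the higher of its own level and the lowest level well above background on that array. Errors were propagated from the software's signal error. With 1 array per condition, no test was run. The counting of calls was tried on simulated data. The changes put in were all past the 2-fold limit, in genes well above background on all 4 arrays. Dim genes and changes near the limit were thus not covered. Python 3.11.15, pandas 2.3.3, R 4.3.3 and limma 3.58.1 (for normexp) were used. The number of arrays limits the precision.

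The genes and lists were chosen with earlier results of these data known. A gene that the name rule also takes is not reported here and is in no count of members. Any member may be named; those called in any comparison, and Tgfb1, Tgfbr1, Tgfbr2, Bmpr1a, Bmpr2 and Smad4 whatever their values, are given on every array. Of each other list, up to 4 genes with the largest rise and fall at day 8, and with both of these arrays well above background, are named. Gene names are the array's. Probe positions are those of the array design (mm9). Alternatives were the array median, quantile scaling, normexp (offset 50) with quantile scaling, the authors' values, all probes with no filter, probes passing on all 4 arrays, dim values raised to a floor, 1 brightest probe per gene, probes counted in place of genes, and a 1.5-fold limit.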

Additional observations from a re-analysis of the deposited data

How the results depend on the processing

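With the array median in place of the 75th percentile, the median of all named genes shifted to -0.15, -0.17 and -0.30 at days 4, 6 and 8, and to -0.15 from day 4 to day 8. The median log2 change of the members moved with it, to -0.33, -0.25, -0.49 and -0.11, and the small day 8 differences of Bmpr2 and Tgfbr2 changed sign, to -0.015 and -0.030. Requiring a signal well above background on every array gave member medians of -0.26 at day 6 and -0.35 at day 8. It also left 6 members higher at days 6 and 8, beside 9.44% and 10.2% of named genes under that filter. From day 4 to day 8 it left 0 higher, beside 2.69%. The 5 genes dim on some array drop out by construction. Normexp with quantile scaling gave 6 members higher at days 6 and 8, beside 6.09% and 6.46% of named genes. From day 4 to day 8 it gave 1 higher and 1 lower, beside 1.68% and 1.2%. In the reported values, 12.3% and 14.1% of named genes were higher at days 6 and 8. The share of called members that were higher was 31.6% under normexp at days 6 and 8. That share was 45.8% and 44.0% in the reported values, and 31.6% and 30.0% with the filter on all 4 arrays. From day 4 to day 8 it was 66.7% in the reported values and 50% under both the array median and normexp. With the 1.5-fold limit, 10 members were higher at day 4, and 8 were higher and 6 lower from day 4 to day 8. No share of named genes at that limit is given beside these counts, so they are not read as a result about the members. The cause of the changes under normexp was not tested. The other 96 of 112 medians and counts under the alternatives kept their direction and moved by less than 0.12 (medians) or 1.5 times (counts), and the counts of lower members against the control were among them. Of 729 values of named genes under the alternatives, 614 moved by less than their error and 113 by more, 57 of them under normexp, and 2 changed sign. Many of these values could hardly move. The authors' values, equal to the reported ones after a constant per array, gave 93 of the 614, and the filter on all 4 arrays gave 78. For a gene with 1 probe, the brightest probe is the gene's own value. The 96 of 112 also include the authors' values, so neither total measures robustness. No paired analysis was possible because the conditions were 1 array each. Dim genes limit the ratios: 5 members have bounds in place of folds against the control.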
